A study of Homo sapiens with 6 samples.

Results

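The genes described here encode proteins of the splicing machinery and of its regulators: the hnRNP proteins (HNRNP), proteins of the small nuclear ribonucleoproteins (SNRP), the serine/arginine-rich SR proteins (SRSF), the SF3a and SF3b complexes (SF3A, SF3B) and the Sm-like proteins (LSM). They were chosen by name, as every protein-coding gene whose symbol starts with 1 of these 6 prefixes, which gave 75 of the 58735 genes in the deposited count table. The families hold 27 HNRNP, 12 SNRP, 12 SRSF, 3 SF3A, 6 SF3B and 15 LSM genes, of which 68 had enough counts to be tested. The 7 genes left untested were HNRNPCL1, HNRNPCL2, HNRNPCL3 and HNRNPCL4, with 0 counts in every library, and HNRNPUL2-BSCL2, SRSF12 and LSMEM2, with at most 6 counts in any library. LSMEM1 and LSMEM2 come under the rule by name only, since they encode membrane proteins and not Sm-like ones. SNRNP70, SNRNP200 and other splicing genes named differently are described separately, after the families.

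ES2 cells, a human ovarian cancer line, were transfected with siRNAs against UAP1 (siUAP1, 3 libraries) or with a control siRNA (control, 3 libraries). An siRNA is a short RNA duplex that directs the cell to destroy a matching mRNA, and UAP1 makes UDP-N-acetylglucosamine, the sugar donor of several kinds of glycosylation. The labels list 2 UAP1 siRNAs and do not say whether they were pooled. All 6 libraries come from this 1 line, cultured alike, given fresh medium 6 h after transfection and lysed for RNA at 48 h, and the labels call the genotypes UAP1 knockdown and WT. They name the cell type high-grade serous carcinoma, but of that tumour's usual markers MUC16 and SOX17 were listed at 0 FPKM in all libraries and PAX8 and WT1 stayed under 1 FPKM, while the keratins KRT7, KRT8 and KRT18 were expressed.

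Splicing removes introns with the help of snRNPs, particles built from a small nuclear RNA, a ring of Sm or LSM proteins and particle-specific proteins. The U2 snRNP, with its SF3a and SF3b complexes, holds the branch point of the intron. SR proteins bind exons and mostly favour their use, hnRNP proteins coat nascent RNA and often repress splice sites, and several genes of both groups limit their own mRNA through alternative splicing.

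The siUAP1 libraries held 23727266 to 25972582 counts and the control libraries 21267240 to 25054159. UAP1 had 21.8, 23.3 and 25.2 CPM (counts scaled to library size) in siUAP1 libraries, against 345, 357 and 444 CPM in control libraries, 16.3-fold lower in siUAP1. Libraries with the same replicate number deviated together, so genes were compared within the 3 pairs as well as between the groups alone. In what follows, rose and fell mean an adjusted p under 0.05 in the fit with pairs (edgeR, Benjamini-Hochberg over all 15768 genes tested), and a log2 fold change is siUAP1 over control from that fit. Library names carry a code shared within each replicate number, but the labels do not say whether the replicates were separate cultures, so the tests speak only of the spread among these libraries, which may be technical. In such bulk samples, fewer cells of a type and less RNA per cell cannot be told apart.

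In siUAP1 cells the splicing genes lay slightly below their control level, and few single differences passed the test. Of the 68 members tested, 13 fell, 1 rose and 54 were not called. Over all genes tested 16.2% were called, 7.14% falling and 9.07% rising, and among protein-coding genes 8.35% fell. HNRNPA1, HNRNPD, HNRNPH1, HNRNPH2, HNRNPM, SNRPA, SNRPD1, SF3A2, SF3B3, SF3B4, SF3B5, SRSF4 and LSM7 fell, and SRSF6 rose. All of these differences were small, from -0.29 for HNRNPH2 to 0.18 for SRSF6.

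In all, 54 of the 68 members had a log2 fold change below 0, beside 50.7% of all genes tested. The members' median was -0.08, which is 5.41% lower in siUAP1, and the median of all genes was -0.0029. In 33 members siUAP1 lay below control in all 3 pairs, which held for 23.6% of all genes, and in 4 it lay above in all 3 pairs, which held for 23.4%. Most members are abundant, and abundant genes were called more often. Of the 55 members with a mean of at least 50 CPM 13 fell and 1 rose, against 13.5% falling and 14.6% rising among the 4560 protein-coding genes at that level, a limit set after the values were seen. Of these 55 members 46 lay below 0, against 54.7% of those genes, and 30 lay below in all pairs, against 32.3%. The members' median was -0.15 in pair 1, -0.03 in pair 2 and -0.06 in pair 3. Without the pairs it was -0.0785, and -0.00998 when siUAP1 replicate 1 was left out. That fit kept control replicate 1, and the members' summed CPM was lowest in replicate 1 in both groups. The value of -0.00998 thus also holds differences between replicate numbers, and does not show how far the shift rested on 1 library.

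Compared without the pairs, no member passed the test, where 0.108% of all genes did, and DESeq2 and limma-voom without pairs called no member either. HNRNPH2 and SRSF4 were the members with an unadjusted p under 0.05 there, a limit that 7.13% of all genes passed. The groups' CPM did not overlap for HNRNPLL, SNRPD2, SRSF4 and SF3B3, all lower in siUAP1, beside 5.71% of all genes, and no member was higher without overlap, beside 6.74% of all genes. The calls with pairs changed with the pairs kept and with the method. Without pair 1, 7 members fell and 3 rose (SRSF6, HNRNPUL2 and LSM14A), and without pair 2, 12 fell and 1 rose. Without pair 3, HNRNPM (adjusted p = 0.0314, edgeR) and SF3B4 (adjusted p = 0.0384, edgeR) were the 2 members still called, while calls over all genes numbered 1195, against 2556 with all pairs. With all 3 pairs kept, limma on log2(FPKM + 1) called HNRNPH2 and SRSF4, and the other 12 had adjusted p-values of 0.0619 to 0.187. DESeq2 with the pairs called 8 of the 14, leaving out HNRNPD, SNRPA, SNRPD1, SF3A2, SF3B5 and LSM7.

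**Figure D1:**
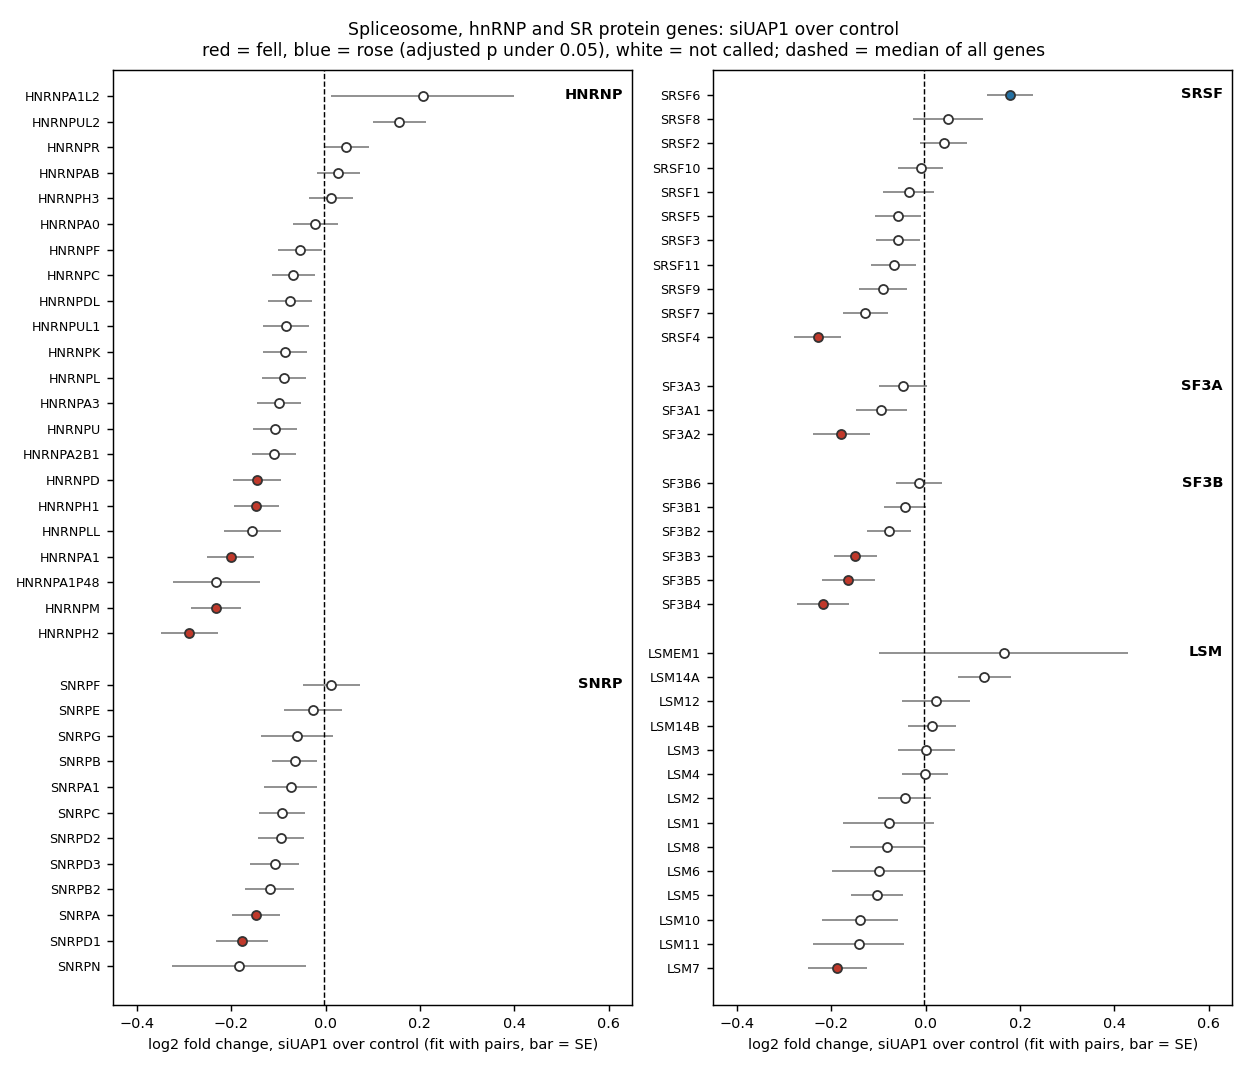
Log2 fold change of each of the 68 tested members, siUAP1 over control, from the fit with pairs (x axis), by family down the page. Bars are SE, the dashed line is the median of all genes tested, and coloured points passed the test: the 13 that fell lie left of the line and SRSF6 lies right of it.

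**Figure D2:**
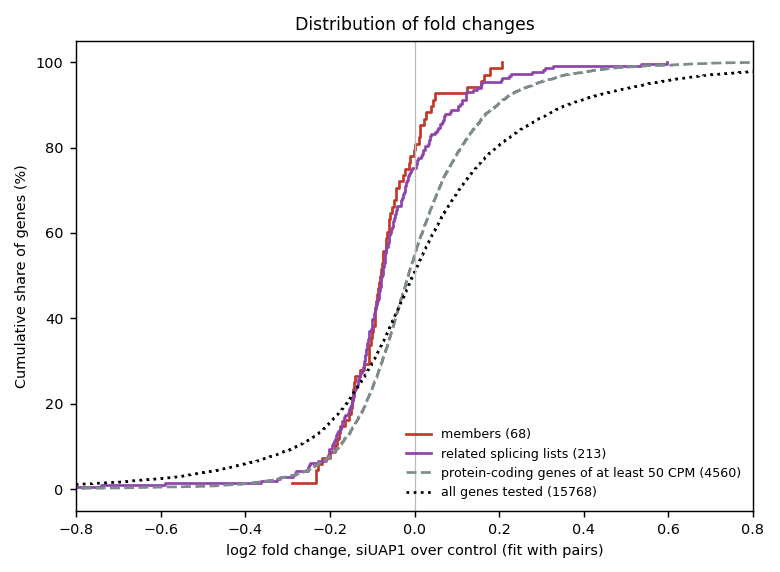
Cumulative share of genes (y axis, %) by log2 fold change, siUAP1 over control (x axis, cropped at both ends), for the members, for related splicing genes, for abundant protein-coding genes and for all genes tested. The members and the related genes both have a median of -0.08, and their curves cross 0 above the others.

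The promoters of HNRNPH2, HNRNPM, SRSF4 and SRSF6 are shown because the first 3 have the smallest p-values among the members that fell and SRSF6 is the one that rose, so that their sequences can be set side by side. They are RefSeq windows (GRCh38.p14) from 250 bases before to 50 bases after the start used in that promoter set, 5′ to 3′ on the gene's own strand: HNRNPH2 at chrX:101407972-101408271 (plus strand), HNRNPM at chr19:8444725-8445024 (plus strand), SRSF4 at chr1:29181851-29182150 (minus strand) and SRSF6 at chr20:43457646-43457945 (plus strand). That start differs from the gene start in the deposited coordinates. The HNRNPH2 window, for example, ends before the deposited gene start at 101408295. Capitals mark 4 words, searched on both strands: the ETS core CCGGAAG, the E-box CACGTG, the CCAAT box CCAAT and the GC box GGGCGG. No marked words overlap in these windows.
HNRNPH2: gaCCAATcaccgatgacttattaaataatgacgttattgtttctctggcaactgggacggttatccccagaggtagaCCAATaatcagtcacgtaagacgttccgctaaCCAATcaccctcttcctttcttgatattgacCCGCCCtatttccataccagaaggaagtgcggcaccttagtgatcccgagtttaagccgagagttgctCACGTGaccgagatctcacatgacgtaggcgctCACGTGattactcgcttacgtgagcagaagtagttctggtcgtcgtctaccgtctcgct
HNRNPM: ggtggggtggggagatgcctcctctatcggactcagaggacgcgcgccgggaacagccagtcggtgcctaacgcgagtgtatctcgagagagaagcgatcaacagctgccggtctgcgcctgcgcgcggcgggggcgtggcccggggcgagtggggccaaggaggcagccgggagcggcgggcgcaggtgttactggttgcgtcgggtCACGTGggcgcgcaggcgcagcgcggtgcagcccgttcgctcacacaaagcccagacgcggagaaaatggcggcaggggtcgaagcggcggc
SRSF4: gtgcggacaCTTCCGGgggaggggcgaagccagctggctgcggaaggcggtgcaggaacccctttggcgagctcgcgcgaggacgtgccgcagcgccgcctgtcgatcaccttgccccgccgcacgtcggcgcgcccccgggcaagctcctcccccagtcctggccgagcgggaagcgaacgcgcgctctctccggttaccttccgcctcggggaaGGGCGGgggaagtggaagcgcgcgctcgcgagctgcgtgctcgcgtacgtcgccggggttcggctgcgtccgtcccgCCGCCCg
SRSF6: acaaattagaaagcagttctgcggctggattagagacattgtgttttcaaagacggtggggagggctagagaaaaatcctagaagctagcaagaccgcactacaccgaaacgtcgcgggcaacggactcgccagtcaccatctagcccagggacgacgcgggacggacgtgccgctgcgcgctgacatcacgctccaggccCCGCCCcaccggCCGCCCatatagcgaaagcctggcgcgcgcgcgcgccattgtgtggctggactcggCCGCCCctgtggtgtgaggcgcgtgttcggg
The HNRNPH2 window holds the CCAAT box 3 times, the E-box 2 times and the GC box 1 time, and the HNRNPM window holds 1 E-box. The SRSF4 window holds 1 ETS core and 2 GC boxes, and the SRSF6 window holds 3 GC boxes. RefSeq promoters were matched for 60 members, with 86 windows in all. The ETS core stood in 26.7% of these windows, against 10.3% of all 35116 promoters. For the E-box the shares were 11.6% of member windows, against 7.26% of all promoters, for the CCAAT box 39.5%, against 34.6%, and for the GC box 54.65%, against 44.95%. Counted per gene, with a match in any of its windows, 4 of the 10 members that fell and have a promoter here held the ETS core, 3 the E-box, 4 the CCAAT box and 9 the GC box, against 20, 8, 31 and 41 of all 60 members (33.3%, 13.3%, 51.7% and 68.3%). A match to these letters is a description only.

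Among the 12 SNRP genes 2 fell and none rose, and DESeq2 with the pairs called neither. The median was -0.09, and without the pairs it turned to 0.00613 when siUAP1 replicate 1 was left out and was -0.00603 without control replicate 3. Sm proteins form the ring on which the U1, U2, U4 and U5 snRNPs are built. Of the 8 genes of the ring 1 fell, SNRPD1 (chr18:21612267-21633524, plus strand, in the deposited coordinates on GRCh38, as for the other genes), which had 81.7, 106 and 104 CPM in siUAP1 libraries, against 94.6, 107 and 128 CPM in control libraries (log2 fold change -0.18, SE 0.0548, adjusted p = 0.0281, edgeR). The groups overlapped, and pair 2 was nearly level, with a difference of -0.01, against -0.21 in pair 1 and -0.30 in pair 3. The call was lost without pair 3 (adjusted p = 0.41, edgeR) and, with all pairs, in DESeq2 (adjusted p = 0.115). SNRPB, the most abundant SNRP transcript per length, had 228, 261 and 299.5 CPM in siUAP1 libraries, against 256, 259.9 and 308 CPM in control libraries (log2 fold change -0.07, SE 0.0474, adjusted p = 0.407, edgeR). Its groups overlapped and it was not called. SNRPD2, another ring gene, had 114, 119.8 and 117 CPM in siUAP1 libraries, against 121, 122 and 131 CPM in control libraries (log2 fold change -0.09, SE 0.0491, adjusted p = 0.214, edgeR). Its groups did not overlap, yet the difference was not called. The remaining ring genes ran from -0.18 for SNRPN to 0.01 for SNRPF, and none was called.

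The genes of U1 and U2 proteins, 4 in number, lay below control in all 3 pairs. SNRPA (chr19:40750637-40765389, plus strand), which binds a loop of the U1 snRNA, fell, with 82.1, 85.8 and 88.9 CPM in siUAP1 libraries, against 88.1, 94.6 and 102 CPM in control libraries (log2 fold change -0.15, SE 0.0507, adjusted p = 0.0471, edgeR). Its highest siUAP1 library stood just above its lowest control library, and the call was lost without pair 2 (adjusted p = 0.14) or pair 3 (0.315) and in DESeq2 with all pairs (0.169). The U1 gene SNRPC (-0.09) and the U2 genes SNRPA1 (-0.07) and SNRPB2 (-0.12) were not called.

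All 3 SF3A and all 6 SF3B genes had a log2 fold change below 0. In SF3a, SF3A2 (chr19:2236504-2248679, plus strand) fell, with 51.9, 76.3 and 64.8 CPM in siUAP1 libraries, against 65.5, 76.8 and 74.8 CPM in control libraries (log2 fold change -0.18, SE 0.0597, adjusted p = 0.0411, edgeR). Its groups overlapped, pair 2 was level (-0.01), and the call was lost without pair 1 (adjusted p = 0.297) or pair 3 (0.26). It was also lost with all pairs in DESeq2 (0.174) and limma-voom (0.0533). SF3A1 had 148, 180.2 and 172 CPM in siUAP1 libraries, against 168, 169 and 197 CPM in control libraries (log2 fold change -0.09, SE 0.0536, adjusted p = 0.267, edgeR). SF3A3, the most abundant of the 3 per length, had 128, 158 and 164 CPM in siUAP1 libraries, against 143, 149.6 and 173 CPM in control libraries (log2 fold change -0.05, SE 0.0506, adjusted p = 0.597, edgeR). Both lay below control in pairs 1 and 3 and above it in pair 2, and neither was called.

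In SF3b, 3 of 6 genes fell, with a family median of -0.11. SF3B4 (chr1:149923317-149928344, minus strand), a subunit that contacts the intron near the branch point, had 75.8, 103 and 129.7 CPM in siUAP1 libraries, against 100.2, 114 and 141 CPM in control libraries (log2 fold change -0.22, SE 0.0547, adjusted p = 0.00667, edgeR). Each siUAP1 library was below its pair, although the groups overlapped. SF3B3 (chr16:70523788-70577670, plus strand), a large scaffold subunit, had 295, 302 and 314 CPM in siUAP1 libraries, against 325, 344 and 342 CPM in control libraries (log2 fold change -0.15, SE 0.0455, adjusted p = 0.0243, edgeR), with no overlap between the groups. SF3B5 (chr6:144094881-144095573, minus strand), a small subunit, had 51.4, 57.9 and 63.8 CPM in siUAP1 libraries, against 61.1, 61.4 and 71.4 CPM in control libraries (log2 fold change -0.16, SE 0.0563, adjusted p = 0.0467, edgeR). Its groups overlapped. The call of SF3B4 was lost without pair 1 (0.0949), that of SF3B3 without pair 2 (0.169) or pair 3 (0.162), and that of SF3B5 without pair 1 (0.213) or pair 3 (0.212). With all pairs, SF3B5 was not called in DESeq2 (adjusted p = 0.202) or limma-voom (0.0528).

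SF3B1, which binds the branch point region and is recurrently mutated in blood cancers, had 402, 382 and 385 CPM in siUAP1 libraries and 408, 401 and 396 CPM in control libraries (log2 fold change -0.04, SE 0.0453, adjusted p = 0.585, edgeR). Its groups overlapped, and it was not called. SF3B6, the branch point contact that is the most abundant SF3B transcript per length, had 112, 109.6 and 128 CPM in siUAP1 libraries and 116, 107 and 131 CPM in control libraries (log2 fold change -0.01, SE 0.0485, adjusted p = 0.895, edgeR). It lay above control in pair 2 and below it in the others. SF3B2 (-0.08) was not called.

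Among the 22 tested HNRNP genes 5 fell and none rose, with a median of -0.09. HNRNPH2 (chrX:101408295-101414133, plus strand), a relative of HNRNPH1 that binds G-rich RNA, had 43.3, 47.2 and 53.0 CPM in siUAP1 libraries, against 56.3, 52.8 and 66.5 CPM in control libraries (log2 fold change -0.29, SE 0.06, adjusted p = 0.00119, edgeR). The groups overlapped by a small margin, and the call was lost without pair 3 (0.0544). HNRNPH1 (chr5:179614178-179634784, minus strand) itself had 290.4, 364 and 302 CPM in siUAP1 libraries, against 339.8, 377 and 338 CPM in control libraries (log2 fold change -0.15, SE 0.0475, adjusted p = 0.035, edgeR). Its call was lost without pair 1 (0.141) or pair 3 (0.276). The other genes of this F/H group were not called, with -0.05 for HNRNPF and 0.01 for HNRNPH3.

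HNRNPM (chr19:8444767-8489114, plus strand), an hnRNP protein that regulates alternative exons, had 247, 313 and 364 CPM in siUAP1 libraries, against 333, 346 and 397 CPM in control libraries (log2 fold change -0.23, SE 0.0535, adjusted p = 0.00315, edgeR). Its difference was -0.43 in pair 1, -0.15 in pair 2 and -0.12 in pair 3, and it was the one member that fell and stayed called whichever pair was left out. HNRNPA1 (chr12:54280193-54287088, plus strand), a repressor of splice sites and the most abundant member per length, had 1038, 1389.9 and 1492 CPM in siUAP1 libraries, against 1281, 1467 and 1742 CPM in control libraries (log2 fold change -0.20, SE 0.0501, adjusted p = 0.00626, edgeR). Each siUAP1 library was below its pair, and the call was lost without pair 3 (0.196). HNRNPD (chr4:82352498-82374503, minus strand), also known as AUF1 for its binding of AU-rich elements, had 241, 329 and 322 CPM in siUAP1 libraries, against 289, 329 and 364 CPM in control libraries (log2 fold change -0.14, SE 0.0502, adjusted p = 0.0495, edgeR). Pair 2 was level, and the call was lost without pair 1 (adjusted p = 0.258) or pair 3 (0.344). With all pairs it was lost with RLE scaling (0.051) and in DESeq2 (0.0921).

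The remaining 17 tested HNRNP genes were not called. HNRNPLL, a relative of HNRNPL known for CD45 splicing in lymphocytes, had 44.4, 44.0 and 48.3 CPM in siUAP1 libraries, against 49.6, 52.0 and 50.5 CPM in control libraries (log2 fold change -0.16, SE 0.0606, adjusted p = 0.0845, edgeR), without overlap. HNRNPUL2, a relative of HNRNPU, had 53.6, 70.3 and 72.04 CPM in siUAP1 libraries, against 49.6, 58.6 and 67.5 CPM in control libraries (log2 fold change 0.16, SE 0.0566, adjusted p = 0.0617, edgeR). It was higher in each pair, with overlapping groups. The abundant HNRNPA2B1 (-0.11), HNRNPU (-0.11), HNRNPA3 (-0.10), HNRNPK (-0.09) and HNRNPC (-0.07) lay below control in every pair without passing the test.

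Of the 11 tested SRSF genes 1 fell and 1 rose, with a median of -0.06. The median was -0.0108 without pair 2, and without the pairs it turned to 0.0578 when siUAP1 replicate 1 was left out and to 0.0363 when control replicate 2 was. SRSF4 (chr1:29147743-29181987, minus strand), an SR protein with a long serine/arginine tail, had 88.3, 95.5 and 82.3 CPM in siUAP1 libraries, against 101, 112 and 98.4 CPM in control libraries (log2 fold change -0.23, SE 0.0497, adjusted p = 0.00184, edgeR). Its groups did not overlap, its difference was -0.19 in pair 1, -0.24 in pair 2 and -0.26 in pair 3, and it missed the threshold without pair 3 (0.0581). SRSF6 (chr20:43457928-43464247, plus strand), a close relative of SRSF4, had 112, 159 and 155 CPM in siUAP1 libraries, against 95.3, 147 and 136 CPM in control libraries (log2 fold change 0.18, SE 0.0481, adjusted p = 0.0114, edgeR). It lay above control in each pair, with replicate 1 the lowest in both groups, and was not called without pair 3 (0.137). SRSF3, the smallest SR protein and the most abundant SR transcript per length, had 274, 322 and 385 CPM in siUAP1 libraries and 299, 323 and 398 CPM in control libraries (log2 fold change -0.06, SE 0.0463, adjusted p = 0.447, edgeR). SRSF1, the founding SR gene (-0.04), SRSF2 (0.04) and SRSF7 (-0.13) were not called.

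Of the 14 tested LSM genes 1 fell and none rose, with a median of -0.06, which turned to 0.00131 without pair 1. LSM7 (chr19:2321517-2328620, minus strand), of the LSM2 to LSM8 ring that binds the end of the U6 snRNA, had 52.4, 54.4 and 64.2 CPM in siUAP1 libraries, against 69.1, 58.5 and 67.3 CPM in control libraries (log2 fold change -0.19, SE 0.0623, adjusted p = 0.0402, edgeR). The groups overlapped, and the call was lost without pair 1 (adjusted p = 0.461) or pair 3 (0.0801) and in DESeq2 with all pairs (0.18). LSM2, of the same ring and the most abundant LSM transcript per length, had 57.9, 53.1 and 68.0 CPM in siUAP1 libraries and 57.6, 53.2 and 74.6 CPM in control libraries (log2 fold change -0.04, SE 0.0564, adjusted p = 0.672, edgeR). LSM5, another ring gene, had 58.5, 63.2 and 73.1 CPM in siUAP1 libraries, against 65.6, 63.5 and 80.5 CPM in control libraries (log2 fold change -0.10, SE 0.055, adjusted p = 0.232, edgeR). LSM14A, a protein of cytoplasmic P-bodies, had 81.6, 98.5 and 93.8 CPM in siUAP1 libraries, against 84.1, 85.0 and 81.8 CPM in control libraries (log2 fold change 0.12, SE 0.0555, adjusted p = 0.139, edgeR). Its siUAP1 replicates 2 and 3 stood above every control library and replicate 1 below them. LSM10 (-0.14) and LSM11 (-0.14) of the U7 snRNP, which processes histone mRNA, and LSM1 (-0.08), which takes the place of LSM8 in the cytoplasmic decay ring, were not called.

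**Figure D3:**
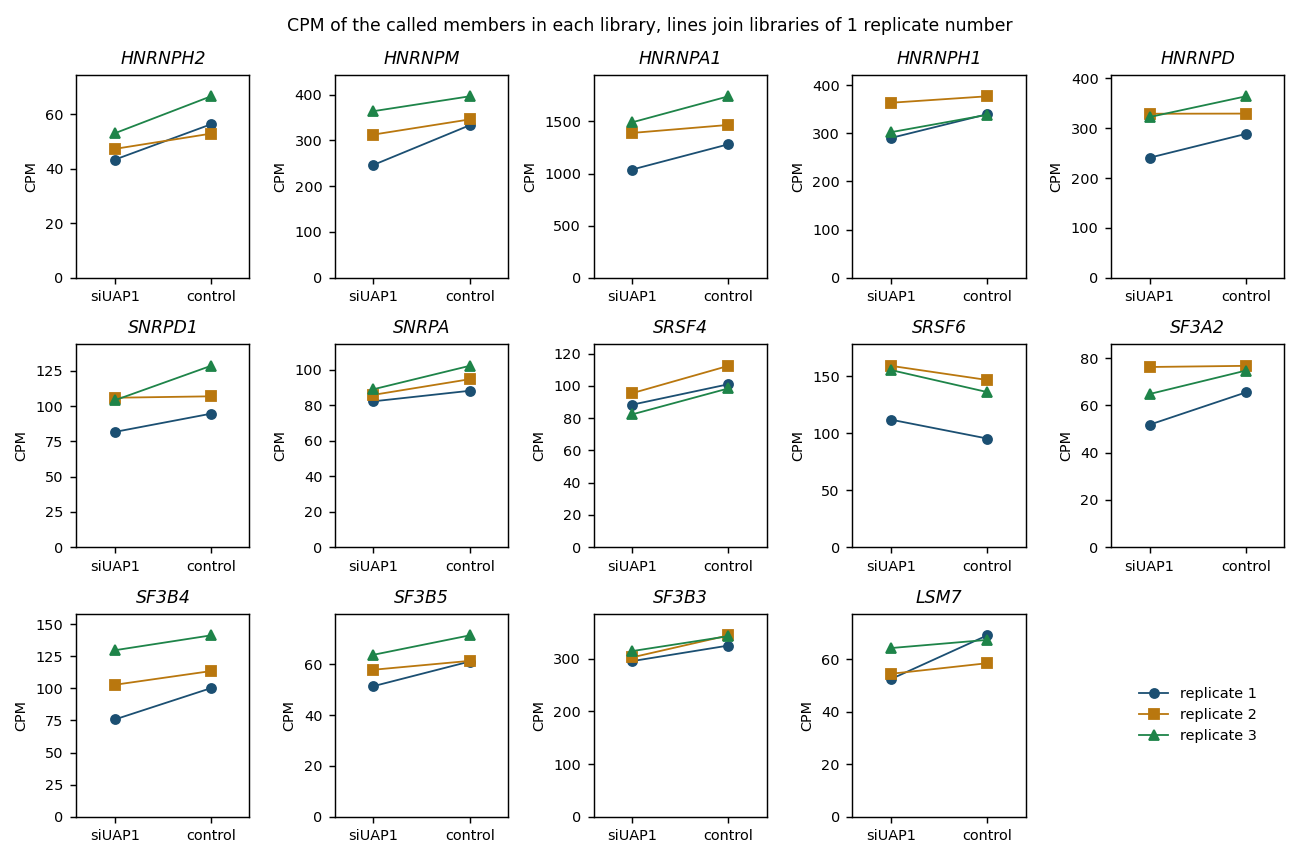
CPM (y axis, from 0) of the 14 called members in each library, siUAP1 left and control right, with lines joining libraries of the same replicate number. The siUAP1 end is lower for the 13 genes that fell, with nearly level lines in replicate 2 for HNRNPD, SNRPD1 and SF3A2, and is higher for SRSF6.

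Transcript levels per length differed far more between members than between groups. Mean FPKM over the 6 libraries ran from 0.849 for LSMEM1 to 273 for HNRNPA1. The family medians were 50.7 FPKM for SF3B, 38.7 for HNRNP, 37.8 for SNRP, 27.8 for SRSF, 27.0 for SF3A and 14.2 for LSM, against 4.06 FPKM for all genes tested. SNRPB reached 208.5 FPKM, while SNRPN, its imprinted relative, stood at 1.88 FPKM, a level that is uncertain because SNRPN shares sequence with other genes. Together the members took 1.23%, 1.41% and 1.46% of the counts in siUAP1 libraries, against 1.35%, 1.46% and 1.55% in control libraries. Each siUAP1 library was below its pair, and the groups overlapped.

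**Figure D4:**
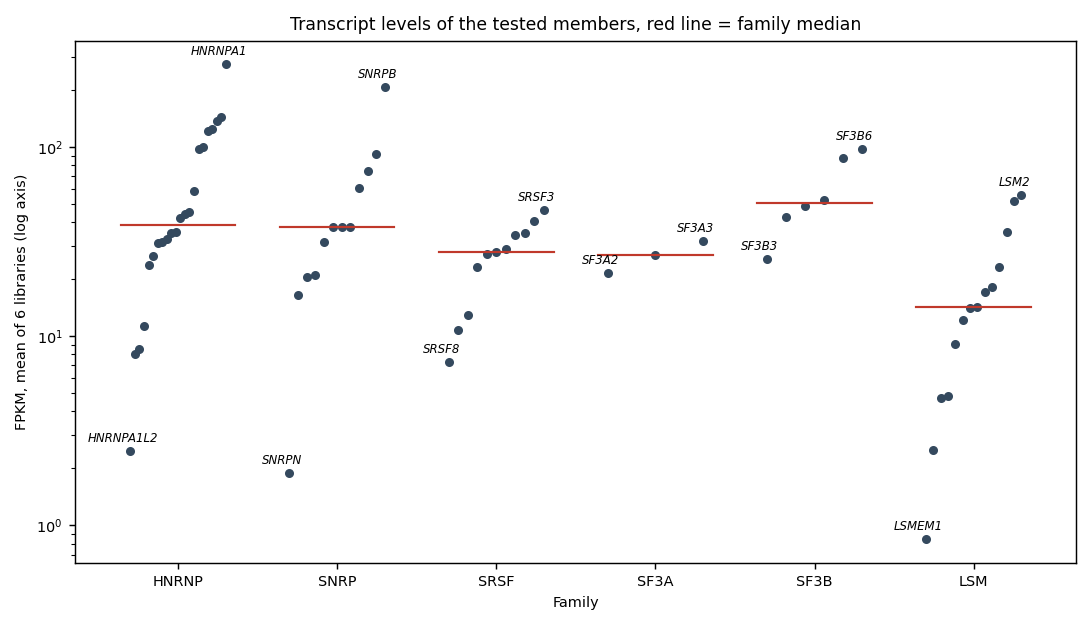
Mean FPKM over the 6 libraries (log y axis) of the 68 tested members, by family (x axis), with red lines at the family medians. HNRNPA1 and SNRPB stand highest, at 273 and 208.5 FPKM, and LSMEM1 lowest, at 0.849 FPKM.

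For most members the range between the 3 replicate numbers was larger in size than the log2 fold change. This held for the called members too, except HNRNPH2, SRSF4 and SF3B3. SF3B4, for example, had a range of 0.64 beside a log2 fold change of -0.22. The measures are unlike, since a range takes the extremes of 3 values and a fold change compares the group means. The range between the 3 replicate numbers, each taken as the mean of its siUAP1 and control library on the log2 CPM scale, had a median of 0.28 over the 68 members and 0.34 over all genes tested. By family this median was highest for SRSF, at 0.41, and lowest for SF3B, at 0.19. The SR gene SRSF5 had 82.6, 149 and 136 CPM in siUAP1 libraries and 88.6, 157 and 136 CPM in control libraries, a range of 0.84 beside a log2 fold change of -0.06. SRSF2, which stays in the nucleus and is mutated in myeloid cancers, had 104, 162 and 108 CPM in siUAP1 libraries and 94.6, 163 and 109 CPM in control libraries, a range of 0.71. Both genes were lowest in replicate 1 and highest in replicate 2 in each group. SF3B1 had the smallest range of the members, 0.05.

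**Figure D5:**
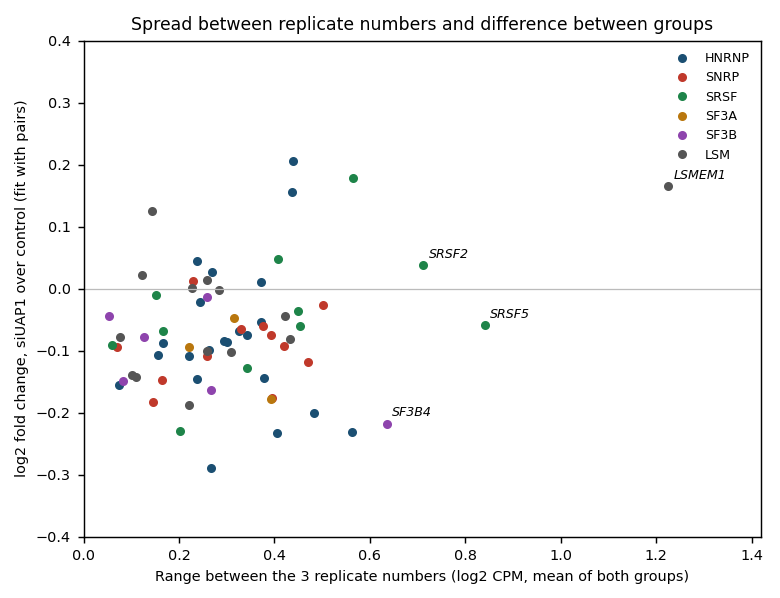
Log2 fold change of each tested member, siUAP1 over control (y axis), against its range between the 3 replicate numbers (x axis, log2 CPM), coloured by family. SRSF5 and SRSF2 lie at 0.84 and 0.71 on the x axis but near 0 on the y axis, and LSMEM1 lies farthest right, at 1.22.

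Other genes of the splicing pathway were taken in 10 lists. They were counted by gene identifier, and MATR3 stands under more than 1 identifier. Of the 213 tested 24 fell (11.3%), against 8.35% of all protein-coding genes tested and 13.5% of those of at least 50 CPM, so that the share that fell lay near the background. The share that rose, 8 genes (3.76%), lay below it, against 10.6% of all protein-coding genes tested and 14.6% of those of at least 50 CPM. The median of the 213 genes was -0.08, and 160 (75.1%) lay below 0, against 50.7% of all genes tested. KHSRP, a KH-domain protein that binds AU-rich RNA, had 210.5, 249.8 and 209 CPM in siUAP1 libraries, against 389, 424 and 421 CPM in control libraries (log2 fold change -0.89, SE 0.05, adjusted p = 4.73e-12, edgeR), and was the one gene of these lists called without the pairs (adjusted p = 0.0408, edgeR). Of the 32 hnRNP-like entries with other names, in which MATR3 counts more than 1 time, 6 fell and 3 rose. Besides KHSRP, the paraspeckle gene PSPC1 (-0.32) was among those that fell, and FUBP1 (0.30), MSI2 (0.28) and SYNCRIP (0.16) rose. Of the 25 SR protein kinases and SR-related genes 1 rose and 1 fell. SON, a scaffold of nuclear speckles, rose, with 263, 266 and 238 CPM in siUAP1 libraries, against 197, 217 and 206 CPM in control libraries (log2 fold change 0.31, SE 0.0486, adjusted p = 5.33e-05, edgeR), without overlap, and TRA2B, which binds exonic enhancers, fell (-0.17).

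Of 35 further U1, U2 and tri-snRNP genes 4 fell and none rose, with PRPF6 (-0.21), PRPF39 (-0.25) and PPIH (-0.25) among those that fell. Among 21 genes of snRNP assembly and import, with the lowest median of the 10 lists, -0.14, the cap-binding genes NCBP2 (-0.25) and NCBP1 (-0.23) and the methylosome gene WDR77 (-0.21) fell. The rise of SMN1 in that list (0.54) is uncertain, because SMN2 is nearly identical to it and 1 of the 3 pairs went the other way. Of 8 genes of 3′ splice site recognition U2AF2 fell (-0.20), which binds the polypyrimidine tract. Of 30 genes of the catalytic complex DHX15 (-0.18), XAB2 (-0.17) and RBM22 (-0.18) fell and PPIL1 rose (0.23). Of 20 exon junction and export genes ALYREF (-0.25), THOC5 (-0.18) and EIF4A3 (-0.15) fell. Among 24 other regulators RBM14 (-0.17) and RBM45 (-0.36) fell and MBNL2 rose (0.21), and among 11 decay partners of LSM proteins EIF4ENIF1 fell (-0.28) and EDC3 rose (0.22). All 12 minor spliceosome genes tested were not called (edgeR), and without the pairs 0 of them had an unadjusted p under 0.05.

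Some counts are uncertain because sequence is shared. Of the 100-base windows of HNRNPA1 transcripts 17.5% also stood in another gene, and the share was 36.1% for HNRNPA1P48 and 31.6% for HNRNPA1L2. For HNRNPH2 it was 12.5%, shared with the read-through gene RPL36A-HNRNPH2, for HNRNPUL2 42.5%, shared with HNRNPUL2-BSCL2, and for SRSF1 45.7%. For SNRPN it was 18.6%, with SNURF sharing the most windows. HNRNPH1 had 3.75%, SRSF6 2.92%, and each other called member at most 0.74%. Of the called members, SNRPA, SF3A2 and LSM7 overlapped a tested gene on the opposite strand, by 89, 398 and 6 exonic bases. SNRPN, which was not called, shared 141 exonic bases with SNHG14 on the same strand. No source used here says whether reads were assigned by strand.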

How the data were processed

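RNA-seq libraries of ES2 cells were grouped by their titles. The labels' protocols describe poly(A) enrichment or ribosomal RNA depletion. The authors deposited raw counts per gene and FPKM values, which scale counts to gene length and library size. The submitters' processing notes name the build GRCh38.p12 and DESeq2. The aligner and counter are not given in the sources used, nor is the use of strand. Positions of all 75 members equal those of GENCODE release 29.

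The main test was edgeR 4.0.16 (R 4.3.3) on the deposited counts: TMM scaling, filterByExpr with a minimum count of 10, a quasi-likelihood fit on group over the whole table, and Benjamini-Hochberg adjustment with a threshold of 0.05. This test called 0 members. The fit with the replicate number as a block was listed as an alternative to it. That alternative gives the calls, log2 fold changes, SE and adjusted p-values printed above, except where a fit without pairs or another method is named. Deviations of same-numbered libraries from their group means correlated at 0.552, 0.454 and 0.584, each above 0.1, and library names share a code within each number. CPM use TMM-scaled totals, and pair differences are of log2 CPM with a prior count of 2.

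Genes given per library were UAP1, each family's most abundant member by FPKM, up to 4 risen and 4 fallen members of smallest p with pairs and, where fewer than 2 were called, the 2 uncalled ones of smallest p. From each related list up to 3 risen and 3 fallen genes were named, and some results are not reported here. HNRNPD, HNRNPLL, HNRNPUL2, SNRPD2, SF3B1, SRSF2 and SRSF5, and the promoters shown, were added after their values were seen. Members and lists were chosen with earlier results of these data known. Alternatives were other scalings and filters, DESeq2 1.42.0, limma 3.58.1 (voom, and log2 FPKM with a pseudocount of 1 or 0.1) and left-out libraries or pairs. On simulated counts of 15768 genes for siUAP1 against control, the fit with pairs recovered 20.9% of genes changed by 0.2, 71.6% by 0.5 and 84.8% by 1 (log2), and the fit without pairs 0%, 0% and 47%. These counts were drawn from the fit with pairs, with its replicate differences and spread. The gain of that fit was thus built in, and the simulation cannot show which fit suits the real data better.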

Additional observations from a re-analysis of the deposited data

How the results depend on the processing

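Members called without pairs numbered 0 under each alternative without pairs that was run. With the replicate block they numbered 14 (5 HNRNP, 2 SNRP, 2 SRSF, 1 SF3A, 3 SF3B and 1 LSM), and 14 with the same family counts when scaled by library totals alone. With RLE scaling there were 13 (4 HNRNP, 2 SNRP, 2 SRSF, 1 SF3A, 3 SF3B and 1 LSM), with limma-voom 12 (5 HNRNP, 2 SNRP, 2 SRSF, 2 SF3B and 1 LSM), with DESeq2 8 (4 HNRNP, 2 SRSF and 2 SF3B) and on log2(FPKM + 1) 2 (1 HNRNP and 1 SRSF). The block without replicate 1 gave 10 (4 HNRNP, 2 SNRP, 2 SRSF, 1 SF3B and 1 LSM), without replicate 2 gave 13 (5 HNRNP, 1 SNRP, 2 SRSF, 2 SF3A, 2 SF3B and 1 LSM) and without replicate 3 gave 2 (1 HNRNP and 1 SF3B). Of the 14 members called with pairs, 0 were called in all 8 other fits with pairs, and 2, HNRNPH2 and SRSF4, in every fit that kept all 3 pairs.

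Calls over all genes, 17 without pairs, numbered 165 with DESeq2, 273 with no filter beyond 1 count, 2 on log2(FPKM + 1), 3 on log2(FPKM + 0.1), 1 on unfiltered log2(FPKM + 1) and 1 to 3 without 1 library. With the replicate block they numbered 2556, with RLE 2539, with library totals 2587, with DESeq2 1311, with limma-voom 2545, on FPKM 944, and 2204, 1987 and 1195 without replicates 1, 2 and 3. Related splicing genes called, 1 without pairs, numbered 2 with no filter beyond 1 count and 0 on FPKM or without any 1 library. With the block there were 32, with RLE 32, with library totals 36, with DESeq2 18, with limma-voom 35, on FPKM 9, and 34, 22 and 11 without replicates 1, 2 and 3.

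Without 1 library, the members' median log2 fold change, -0.0785 without pairs, ranged from -0.144 (without siUAP1 replicate 3) to -0.00998 (without siUAP1 replicate 1). The ranges were -0.152 to -0.0141 for HNRNP, -0.171 to 0.00613 for SNRP, -0.129 to 0.0578 for SRSF, -0.154 to -0.0142 for SF3A, -0.14 to -0.0569 for SF3B and -0.097 to -0.00716 for LSM, so that the SNRP and SRSF medians changed sign. These fits without pairs kept the same-numbered library of the other group, so their ranges also hold differences between replicate numbers. With the block, the LSM median was 0.00131 without replicate 1 and the SRSF median -0.0108 without replicate 2. The median of all genes, -0.0031, ranged from -0.00669 to 0.00318 without 1 library, and was -0.0114 on log2(FPKM + 1), with the block too, and -0.01265 on log2(FPKM + 0.1).

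Fold changes with 1 library left out were taken for the called members and the other members given per library by the rule above. They were not taken for HNRNPLL, HNRNPUL2, SNRPD2, SF3B1, SRSF2 and SRSF5 or for the related genes, so the stability of those is not known. Among the members covered, 6 uncalled ones changed sign when 1 library was left out. The ranges were -0.164 to 0.0305 for SNRPB, -0.188 to 0.0695 for SRSF3, -0.111 to 0.0566 for SF3A3, -0.0878 to 0.0646 for SF3B6, -0.152 to 0.105 for LSM2 and -0.196 to 0.00744 for LSM5. With the block, SF3A3 had 0.00197 and SF3B6 0.00394 without replicate 1, and LSM2 had 0.00274 without replicate 3. Called members kept their sign when 1 library was left out without pairs, but moved widely: SRSF6 from 0.00635 to 0.32, HNRNPD from -0.223 to -0.00573, SF3B4 from -0.403 to -0.0243, SF3A2 from -0.311 to -0.0348, HNRNPA1 from -0.299 to -0.0532, SNRPD1 from -0.278 to -0.0534, HNRNPM from -0.356 to -0.0824, HNRNPH1 from -0.248 to -0.0776, SF3B5 from -0.24 to -0.0867, LSM7 from -0.28 to -0.13, SNRPA from -0.202 to -0.0954 and HNRNPH2 from -0.369 to -0.192. SRSF4 ranged from -0.286 to -0.171 and SF3B3 from -0.177 to -0.128. Each of these fits without pairs kept the same-numbered library of the other group, so the ranges also hold differences between replicate numbers. SRSF6, for example, was lowest in replicate 1 in both groups, and its pair differences were 0.23, 0.12 and 0.19. How much of the movement came from this was not tested. Low counts limit the precision of members such as SNRPN, HNRNPA1L2 and LSMEM1.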
